A study of Homo sapiens with 16 samples.

Results

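Collagens and the enzymes that modify them were measured as 54 genes of 20279 on Affymetrix expression arrays. The genes were all those whose symbol has the form COL, number, A, number, together with LOX, LOXL1 to LOXL4, PLOD1 to PLOD3 and P4HA1 to P4HA3. They comprise 43 collagen chains and 11 enzymes, read by 128 probe sets that each name 1 gene. RNA came from 16 subcutaneous xenograft tumours, 1 array per tumour, grown from PC-3, a long-established line of human prostate cancer cells. Each host was a female nude mouse (BALB/c), aged 5 weeks when the cells were injected, and a tumour was collected once it measured at least 5 mm across. Neither hosts nor tumours were treated.

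There were 4 groups of 4 independent tumours, each group grown from a single cell line. In mock, telomeres were short and no exogenous hTERT (telomerase's catalytic subunit) was present. In LhTERTL, telomeres were long and exogenous hTERT was present. The mock_cre line, described as mock/cre+, had short telomeres and no exogenous hTERT, and the LhTERTL_cre line, described as LhTERTL/cre+, had long telomeres with the exogenous hTERT absent. Cre is a DNA recombinase. The comparisons ask which genes differ in tumours whose cancer cells have long telomeres, with and without exogenous hTERT. As each group is 1 line, telomere length cannot be told apart from any other difference between lines, and the tests measure the spread among tumours of a line.

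Collagens are secreted proteins of 3 chains wound into a helix. Fibrillar collagens such as types I, III and V form tissue fibrils, collagen IV forms the sheet of basement membranes, and collagen VI forms beaded filaments close to cells. Before secretion, prolyl 4-hydroxylases (P4HA subunits) hydroxylate prolines, which stabilises the helix, and lysyl hydroxylases (PLOD) hydroxylate lysines. After secretion, lysyl oxidases (LOX and LOXL) convert lysines to aldehydes that cross-link the fibrils. In tumours much of the fibrillar collagen is made by host fibroblasts, and cancer cells can make collagens of their own. The probes were designed for human RNA, so mouse stroma of the host could be seen only through cross-hybridisation.

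All values are log2 signals from which the probe set's own median across tumours had been subtracted. Only differences between tumours can be read from them, and a value of 0 marks the middle tumour and not absence. In bulk tumour RNA, fewer cells that make a transcript and less transcript per cell cannot be told apart.

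Collagen IV genes lie in 3 head-to-head pairs, each pair transcribed outward from a shared stretch of promoter DNA, and LOX had one of the largest differences between lines, so these 4 promoters are printed. Sequences and positions are those of RefSeq on GRCh38.p14. Capitals mark GGGCGG (the GC box), CCAAT and ACGTG (the core of hypoxia response elements) on either strand. These letters and TATAAA were searched, and no marked stretch overlaps another.
COL4A1 and COL4A2: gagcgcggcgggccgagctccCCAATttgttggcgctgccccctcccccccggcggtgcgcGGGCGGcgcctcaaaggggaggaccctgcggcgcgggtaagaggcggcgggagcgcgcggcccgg
COL4A4 and COL4A3: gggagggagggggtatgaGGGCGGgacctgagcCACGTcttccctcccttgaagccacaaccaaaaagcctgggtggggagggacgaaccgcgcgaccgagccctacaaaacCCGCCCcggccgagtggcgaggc
COL4A6 and COL4A5: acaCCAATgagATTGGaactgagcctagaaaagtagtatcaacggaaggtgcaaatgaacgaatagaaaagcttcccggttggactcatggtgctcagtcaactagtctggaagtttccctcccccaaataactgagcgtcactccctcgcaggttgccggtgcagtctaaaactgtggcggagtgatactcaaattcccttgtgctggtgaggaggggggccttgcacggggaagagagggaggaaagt
LOX: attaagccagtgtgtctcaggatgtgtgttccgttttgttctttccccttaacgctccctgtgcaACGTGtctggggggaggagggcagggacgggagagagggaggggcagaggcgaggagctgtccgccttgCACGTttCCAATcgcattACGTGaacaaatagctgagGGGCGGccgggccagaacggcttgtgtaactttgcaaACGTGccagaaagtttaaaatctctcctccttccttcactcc

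The COL4A1 and COL4A2 stretch is the whole of the 126 bases between the annotated starts, chr13:110307158-110307283, read on the plus strand, with COL4A2 to the right. It has a GC content of 80.2%, 1 GC box and 1 CCAAT. The 135 bases between COL4A4 and COL4A3, chr2:227164489-227164623 on the plus strand, hold 2 GC boxes and 1 ACGTG. The starts of COL4A6 and COL4A5 lie 379 bases apart, and the 250 bases next to COL4A5, chrX:108439588-108439837 on the plus strand, hold 2 CCAAT and no GC box. The 250 bases before LOX, chr5:122078260-122078509 on the minus strand, hold 4 ACGTG, 1 CCAAT and 1 GC box. None of the 4 stretches holds TATAAA. In 27305 RefSeq promoters, the 250 bases before the start held ACGTG in 18.7%, CCAAT in 33.0% and the GC box in 42.3%. For windows of 126 bases the shares were 21.9% for CCAAT and 34.6% for the GC box, and for windows of 135 bases 11.7% for ACGTG and 35.6% for the GC box. Of the members, 40 had a promoter in the table; over windows of 300 bases 23 of them (57.5%) held the GC box, against 44.6% of all promoters, and 8 held ACGTG, against 21.6% of all. A match describes letters and not a binding site.

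Array controls set mock_cre apart. A log2 ratio of 3' to 5' signal from the control probe sets for GAPDH and beta-actin, a sign of RNA quality and called the 3'/5' ratio here, was 0.64 ± 0.38 (SD, n = 4) in mock_cre and between -0.08 and 0.07 on average in the other lines. It differed between mock_cre and mock by 0.57 (two-sided exact permutation test, p = 0.0286, which is the lowest possible for 4 against 4, adjusted p = 0.0477 over 5 comparisons), and between LhTERTL_cre and mock_cre by -0.71 (exact permutation p = 0.0286, adjusted p = 0.0477). Between long and short telomeres the ratio differed by -0.43 (permutation p = 0.00855, adjusted p = 0.0428). That permutation exchanged tumours regardless of line, so it cannot tell telomere length from the high ratio of mock_cre. In LhTERTL against mock the ratio differed by -0.15 (exact permutation p = 0.286, adjusted p = 0.358). Poly-A spike controls were high on 5 arrays, at least 1 in each line. TERT, the gene introduced in LhTERTL, was 3.13 log2 units higher in LhTERTL than in mock by the probe set 1555271_a_at (limma, adjusted p = 6.02e-09), whereas 207199_at differed by -0.58 (adjusted p = 0.0181).

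Tumours with long telomeres had more transcript of 16 of the 54 genes and less of 5, taking the mean of the LhTERTL against mock and LhTERTL_cre against mock_cre differences (limma, adjusted p under 0.05 over all genes). That is 38.9% of the members, against a background of 32.6% of all genes tested (18.5% higher and 14.1% lower). The collagen IV chains COL4A1 and COL4A2, the collagen VI chain COL6A3 and the lysyl oxidase LOXL1 were the largest rises, and LOX, COL5A2 and COL4A5 the largest falls. Of the enzymes 6 rose and 1 fell of 11, and of the collagens 10 rose and 4 fell of 43. The median difference was 0.05 over the members and 0.02 over all genes. Without the 4 mock_cre tumours 13 members were called (9 higher and 4 lower), of which 10 were among the 21, against 21.5% of all genes. The calls of COL13A1 (0.11), COL24A1 (-0.13), LOXL2 (0.08), PLOD3 (0.17) and P4HA3 (0.15) ended there, along with those given below. After adjustment for the 3'/5' ratio 15 members were called, against 25.7% of all genes. COL13A1 (0.36 in all 16 tumours) held its call only without mock 2, mock 4, LhTERTL 2, mock_cre 2 or LhTERTL_cre 4 (0.31 to 0.45 over all omissions). Any difference among the 4 lines was called for 26 members (48.1%), against 39.7% of all genes.

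Line means of a member spanned a median of 0.35 log2 units from the lowest to the highest line, against 0.23 over all genes, while the median spread within lines was 0.15 against 0.13. For 5 of the 54 members the span was above 1 unit, namely COL4A1 (1.998), LOX (1.64), COL5A2 (1.39), COL4A2 (1.22) and COL6A3 (1.15). Over all genes it was above 1 unit for 859 of 20279. Among the 26 members called for any difference, LhTERTL had the highest mean for 13 and mock_cre the lowest for 14. The same counts were not made over all genes.

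**Figure D1:**
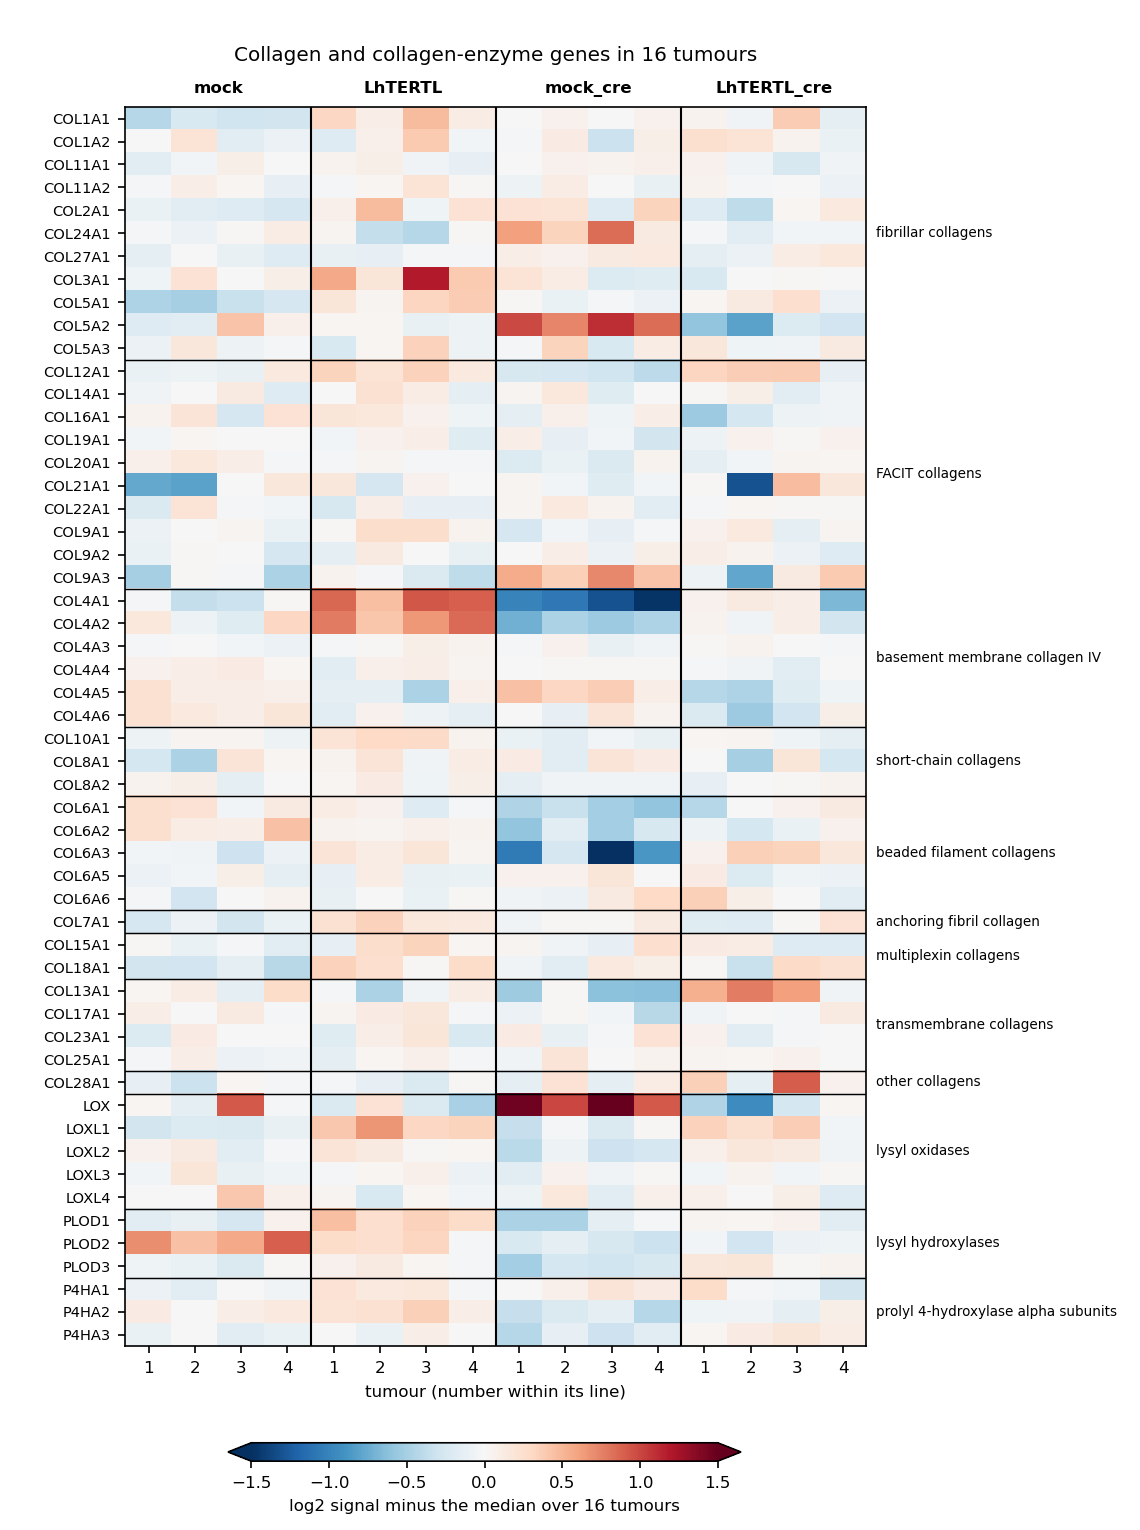
Each column is 1 tumour, numbered within its line, and each row 1 of the 54 genes, grouped by structural class; colour gives the log2 signal minus the gene's centre over the 16 tumours, from blue (low) to red (high), cut at 1.5 in either direction. The mock_cre line has the lowest means of COL4A1, COL4A2 and COL6A3 and the highest of LOX and COL5A2, and LhTERTL is high for COL4A1 and COL4A2. For COL6A3, mock_cre 2 lies within the range of mock, and for LOX, mock 3 is about level with the lowest mock_cre tumour.

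Collagen IV differed chain by chain. COL4A1 and COL4A2, which make up the common basement membrane network, were higher in long-telomere tumours in both pairs, while COL4A5 and COL4A6 were lower on average. COL4A3 and COL4A4 (-0.07 to 0.07 in each pair of lines) did not pass the test in any comparison. COL4A1 (Entrez gene 1282) stood at -0.02, -0.36, -0.32 and 0.02 in the mock tumours, at 0.86, 0.46, 0.93 and 0.89 in LhTERTL, at -1.004, -1.07, -1.31 and -1.47 in mock_cre and at 0.06, 0.13, 0.10 and -0.68 in LhTERTL_cre. All LhTERTL tumours were above all mock tumours, and all LhTERTL_cre tumours above all mock_cre tumours, but LhTERTL_cre overlapped mock. The averaged difference was 1.04 ± 0.12 (SE, n = 4 per line, 2.05-fold, adjusted p = 3.25e-06), made up of 0.95 in LhTERTL against mock and 1.12 in LhTERTL_cre against mock_cre.

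COL4A2 (Entrez gene 1284), the partner chain of COL4A1, was at 0.16, -0.07, -0.19 and 0.31 in mock, 0.78, 0.42, 0.65 and 0.84 in LhTERTL, -0.72, -0.47, -0.54 and -0.46 in mock_cre and 0.06, -0.06, 0.09 and -0.27 in LhTERTL_cre. The order of the lines was the same as for COL4A1, with no overlap between LhTERTL and mock or between LhTERTL_cre and mock_cre. Its averaged difference was 0.56 ± 0.08 (1.48-fold, adjusted p = 4.26e-05). Both probe sets of either gene were called in each pair. Without the mock_cre tumours the difference between LhTERTL and LhTERTL_cre on one side and mock on the other was 0.51 for COL4A1 (adjusted p = 0.0225) and 0.26 for COL4A2 (adjusted p = 0.0977), so the COL4A2 call ended. After adjustment for the 3'/5' ratio the LhTERTL_cre against mock_cre difference was 0.88 for COL4A1 (adjusted p = 0.0243) and 0.51 for COL4A2 (adjusted p = 0.0634).

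COL4A5, a chain of the basement membranes of kidney glomerulus and other tissues, ran the other way. It was at 0.23, 0.10, 0.11 and 0.08 in mock, -0.14, -0.13, -0.48 and 0.07 in LhTERTL, 0.44, 0.31, 0.37 and 0.10 in mock_cre and -0.43, -0.46, -0.18 and -0.07 in LhTERTL_cre. Every long-telomere tumour was below every tumour of its short-telomere partner line. The averaged difference was -0.44 ± 0.08 (adjusted p = 0.000252), and it came from 1 of its probe sets, 213110_s_at at -0.74, the other being at -0.15 (adjusted p = 0.261). COL4A6, its head-to-head neighbour, differed by -0.26 ± 0.07 (adjusted p = 0.0115), a call that ended after adjustment for the 3'/5' ratio (-0.22, adjusted p = 0.152). In the averaged difference the genes of a pair thus shared a direction for COL4A1 with COL4A2 and COL4A5 with COL4A6. From mock to mock_cre the mean of COL4A5 went from 0.13 to 0.30 and that of COL4A6 from 0.16 to 0.03, neither called. From mock to LhTERTL the mean of COL4A3 went from -0.04 to 0.03 and that of COL4A4 from 0.08 to 0.01.

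**Figure D2:**
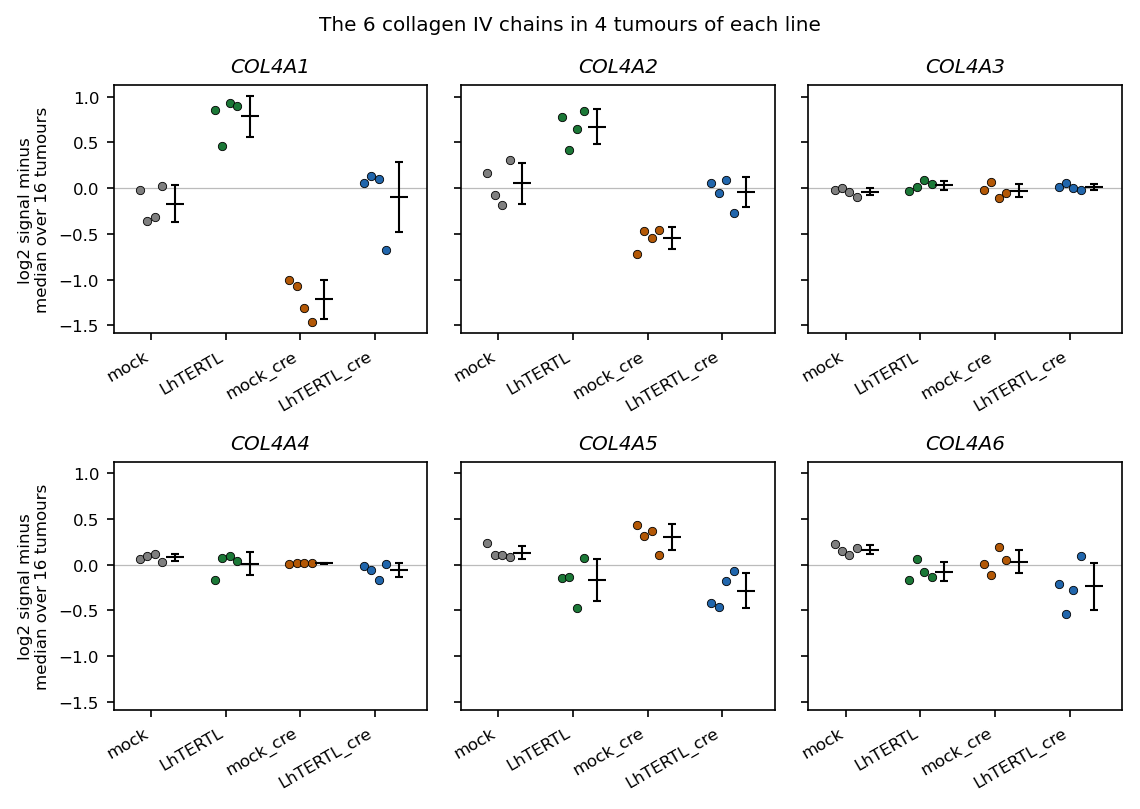
Points are single tumours and the bar beside them is the line's mean ± SD (n = 4), in log2 signal minus the gene's centre over 16 tumours, for the 6 collagen IV chains by line. COL4A1 and COL4A2 are highest in LhTERTL and lowest in mock_cre, COL4A5 and COL4A6 are lowest in LhTERTL_cre, and COL4A3 and COL4A4 stay near 0 in every line.

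LOX and COL5A2 were highest in mock_cre tumours, and the 3 chains of collagen VI were lowest there. LOX (Entrez gene 4015), the founding lysyl oxidase, was at 0.03, -0.14, 0.92 and -0.03 in mock, -0.22, 0.22, -0.21 and -0.49 in LhTERTL, 1.46, 1.00, 1.57 and 0.92 in mock_cre and -0.45, -0.94, -0.26 and 0.03 in LhTERTL_cre. The mock_cre tumours were above all others, though the lowest of them (0.920) barely exceeded mock 3 (0.918). LOX was 1.04 ± 0.23 higher in mock_cre than in mock (2.06-fold, adjusted p = 0.00404) and -1.64 ± 0.23 in LhTERTL_cre against mock_cre (3.12-fold lower, adjusted p = 5.14e-05). Averaged over the pairs, long telomeres differed from short by -1.01 ± 0.16 (adjusted p = 0.000135), of which LhTERTL against mock gave -0.37 (adjusted p = 0.314). Without the mock_cre tumours the long against short difference was -0.48 (adjusted p = 0.118).

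COL5A2, a chain of collagen V that regulates fibril assembly, had the same line as its highest. Its values were -0.19, -0.16, 0.43 and 0.08 in mock, 0.03, 0.03, -0.11 and -0.08 in LhTERTL, 0.99, 0.73, 1.10 and 0.84 in mock_cre and -0.60, -0.80, -0.21 and -0.28 in LhTERTL_cre. The mock_cre tumours were above all others and the LhTERTL_cre tumours below all others. COL5A2 rose by 0.87 ± 0.14 in mock_cre against mock (1.83-fold, adjusted p = 0.000282) and differed by -1.39 ± 0.14 between LhTERTL_cre and mock_cre (2.62-fold lower, adjusted p = 1.52e-06). COL5A1, the other main chain of collagen V, was higher in long-telomere tumours, at 0.37 ± 0.06 on average, where COL5A2 was at -0.73 ± 0.10 (adjusted p = 1.8e-05; -0.29 and adjusted p = 0.116 without the mock_cre tumours). COL3A1, which lies 19.2 kb from COL5A2 on chromosome 2, differed by -0.08 between mock_cre and mock (adjusted p = 0.819).

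COL6A3, the large chain of collagen VI, was at -0.04, -0.05, -0.31 and -0.09 in mock, 0.19, 0.11, 0.18 and 0.04 in LhTERTL, -1.06, -0.26, -1.49 and -0.87 in mock_cre and 0.06, 0.35, 0.33 and 0.17 in LhTERTL_cre. The mock_cre tumours varied most, and only mock_cre 2 reached the range of mock. The difference from mock was -0.80 ± 0.17 (adjusted p = 0.00287), and LhTERTL_cre exceeded mock_cre by 1.15 ± 0.17 (2.22-fold, adjusted p = 7.43e-05). COL6A1 and COL6A2, whose genes lie 93.1 kb apart on chromosome 21, fell by 0.61 ± 0.11 (adjusted p = 0.000756) and 0.60 ± 0.10 (adjusted p = 0.000399) in mock_cre against mock. There 5 of 8 COL6A1 probe sets were called lower, the 8 running from -1.57 to -0.0050. For COL6A2 1 of 2 was called lower, the 2 being at -0.99 and -0.21. The remaining collagen VI genes measured, COL6A5 and COL6A6, differed by 0.12 and 0.14 and were not called.

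Against mock, mock_cre had 7 members higher and 10 lower, and the background was 19% of all genes (9% higher and 10% lower). The other rises were COL1A1 (0.34), COL5A1 (0.34), COL24A1 (0.48, a fibrillar collagen), COL27A1 (0.22, a fibrillar collagen) and COL9A3 (0.76, a chain of collagen IX). The other falls were COL4A1 (-1.04), COL4A2 (-0.60), COL13A1 (-0.51, a transmembrane collagen), LOXL2 (-0.26), P4HA2 (-0.38), PLOD2 (-0.88) and PLOD3 (-0.24). Several of these calls lay near the threshold and ended when 1 tumour was left out. COL24A1 ended without mock_cre 3 (0.36, adjusted p = 0.061), COL1A1 without mock 1, mock_cre 2 or mock_cre 4 (0.30 to 0.33), PLOD3 without mock 1, mock 2, mock 4 or mock_cre 1 (-0.24 to -0.18), and LOXL2 without mock 1, mock 2, mock 4, mock_cre 1, mock_cre 3 or mock_cre 4 (-0.27 to -0.21). COL13A1 kept its call only without mock 3, LhTERTL 2, LhTERTL 4, mock_cre 2, LhTERTL_cre 2 or LhTERTL_cre 4 (-0.66 to -0.44 over all 16 omissions), and COL27A1 only without mock 2, LhTERTL 2, LhTERTL 3 or any LhTERTL_cre tumour (0.19 to 0.25).

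The 3'/5' ratio moved with these differences, and with it as a covariate 7 members were called in mock_cre against mock, against 9.05% of all genes. COL4A1 (-0.85, adjusted p = 0.0256), COL4A2 (-0.61), COL5A2 (0.83, adjusted p = 0.0152), COL24A1 (0.73), COL6A2 (-0.74, adjusted p = 0.00303), COL6A3 (-0.79, adjusted p = 0.0495) and PLOD2 (-0.90, adjusted p = 0.00114) kept their calls. LOX (1.02, adjusted p = 0.0657) and COL6A1 (-0.36, adjusted p = 0.0772) did not.

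**Figure D3:**
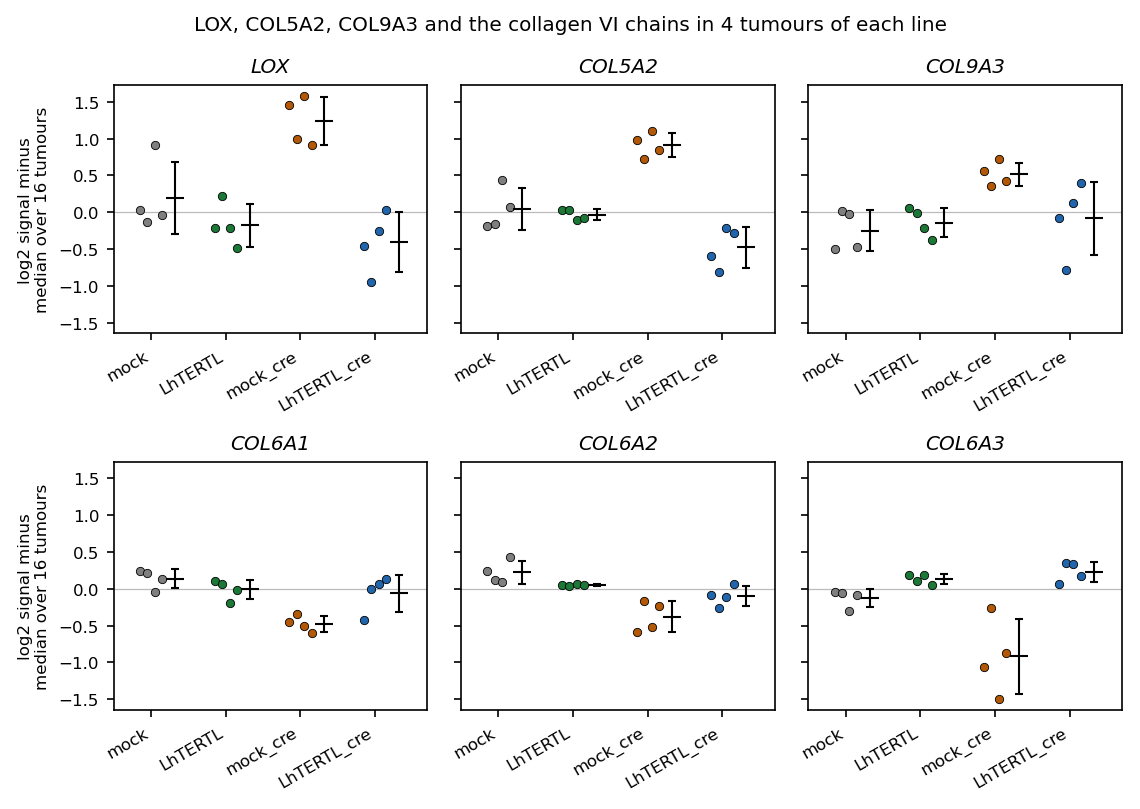
Points are single tumours and bars the mean ± SD of a line (n = 4), in log2 signal minus the gene's centre over 16 tumours. LOX, COL5A2 and COL9A3 are highest on average in mock_cre, and COL6A1, COL6A2 and COL6A3 lowest; mock 3 stands at 0.92 for LOX, about level with the lowest mock_cre tumour.

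In LhTERTL against mock, 11 members were higher and 1 lower, 22.2% of the members against a background of 20.3% (12.3% higher and 7.99% lower). The fibrillar collagens COL1A1, COL3A1 and COL5A1 were among the rises. COL5A1 was at -0.46, -0.49, -0.34 and -0.25 in mock and at 0.18, 0.04, 0.33 and 0.38 in LhTERTL. All LhTERTL tumours lay above all mock tumours, and the difference was 0.62 ± 0.09 (adjusted p = 9.81e-05). COL1A1, the main chain of collagen I, was at -0.43, -0.23, -0.30 and -0.28 in mock and at 0.31, 0.10, 0.47 and 0.11 in LhTERTL, again without overlap (0.56 ± 0.10, adjusted p = 0.000803). COL18A1, a basement membrane collagen whose fragment is endostatin, rose by 0.50 ± 0.12 (adjusted p = 0.00547), and COL7A1, the anchoring fibril collagen, by 0.40 ± 0.09 (adjusted p = 0.00367). COL1A2, which pairs with COL1A1 in collagen I, differed by 0.07 ± 0.13 and was not called. Its 3 probe sets disagreed, running from -0.33 to 0.56 with 1 called higher, so the mean does not settle whether the 2 chains differ.

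COL3A1, the collagen III chain, was at -0.06, 0.21, 0.00 and 0.08 in mock and at 0.56, 0.18, 1.19 and 0.39 in LhTERTL. LhTERTL 3 stood highest, and without it the difference of 0.52 ± 0.16 (adjusted p = 0.025) was 0.32 (adjusted p = 0.0662). The call also ended without mock 1 (0.48), mock 3 (0.50), mock 4 (0.53) or LhTERTL 1 (0.53). LhTERTL 3 and mock 3 are arrays with high spike controls, and with the spike class as a block the difference was 0.52 (adjusted p = 0.0226). COL12A1, a collagen that decorates fibrils, rose by 0.29 ± 0.10 (adjusted p = 0.0465), a call that held only without mock 4, LhTERTL 4, LhTERTL_cre 2, LhTERTL_cre 3 or LhTERTL_cre 4 (0.26 to 0.35 over the omissions).

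Probe sets of a gene did not always move together. For COL1A1 the differences between long and short telomeres ran from -0.02 (202311_s_at) to 0.80 (1556499_s_at) over 5 probe sets, and 2 were called. For LOX, 204298_s_at and 215446_s_at gave -1.15 and -1.79, and 213640_s_at gave -0.09 (adjusted p = 0.465). In COL12A1, 4 of 5 probe sets were called higher, from 0.29 to 0.96, and 233109_at was at 0.10. For COL3A1, 211161_s_at differed by 1.54 between LhTERTL and mock and 215076_s_at by -0.26. No member had probe sets called in opposite directions within any comparison, and the gene values here are means over probe sets.

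**Figure D4:**
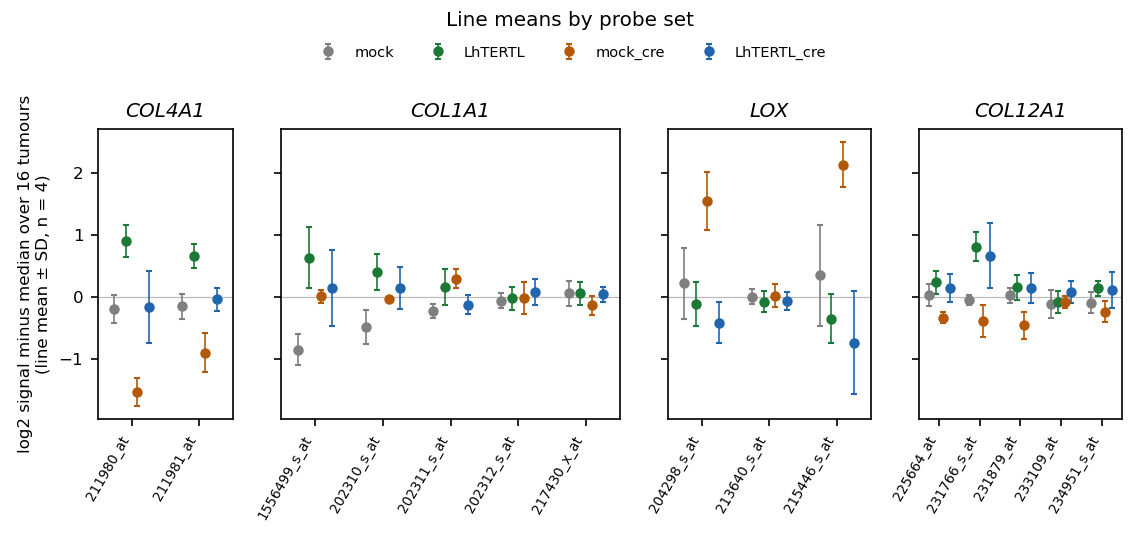
Points are line means ± SD (n = 4) for each probe set of COL4A1, COL1A1, LOX and COL12A1, in log2 signal minus the probe set's median over 16 tumours. The COL4A1 probe sets order the lines alike, 2 of 5 COL1A1 probe sets carry most of its difference, and 1 of 3 LOX probe sets is flat.

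Among the cross-linking enzymes, LOXL1 (Entrez gene 4016), which also acts on elastin, was higher with long telomeres in both pairs. It was at -0.27, -0.20, -0.21 and -0.11 in mock, 0.41, 0.66, 0.31 and 0.34 in LhTERTL, -0.34, -0.01, -0.21 and 0.01 in mock_cre and 0.35, 0.24, 0.37 and -0.05 in LhTERTL_cre. LhTERTL lay wholly above mock, and 1 LhTERTL_cre tumour fell within the mock_cre range. The averaged difference was 0.50 ± 0.07 (1.41-fold, adjusted p = 4.5e-05), with 0.63 and 0.37 in the separate pairs. LOXL2 rose by 0.22 ± 0.06 on average (adjusted p = 0.00906), carried by 202998_s_at at 0.67 while its other probe sets were between -0.0031 and 0.18. LOXL2 ended after adjustment for the 3'/5' ratio (0.17, adjusted p = 0.167). LOXL3 (0.02 ± 0.05) and LOXL4 (-0.08 ± 0.07) were not called in any comparison.

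Lysyl hydroxylases differed from one another. PLOD1, which acts on the helical part of collagens, was at -0.17, -0.11, -0.26 and 0.07 in mock, 0.45, 0.26, 0.34 and 0.27 in LhTERTL, -0.48, -0.48, -0.15 and -0.03 in mock_cre and 0.05, 0.03, 0.07 and -0.17 in LhTERTL_cre. The averaged difference was 0.36 ± 0.07 (adjusted p = 0.000741). In LhTERTL_cre against mock_cre it was 0.28 ± 0.10, a call that held only without mock 3, mock 4, mock_cre 3, mock_cre 4 or LhTERTL_cre 4 (0.21 to 0.36 over the omissions) and ended after adjustment for the 3'/5' ratio (0.42, adjusted p = 0.0714). PLOD3, which can also add sugars to hydroxylysine, rose by 0.29 ± 0.05 on average (adjusted p = 0.000307), with 0.44 in the cre pair and 0.14 (adjusted p = 0.201) in the other.

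PLOD2 (Entrez gene 5352), which hydroxylates the telopeptides that form the stable cross-links, was highest in mock. Its values were 0.70, 0.44, 0.57 and 0.90 in mock, 0.28, 0.25, 0.32 and -0.03 in LhTERTL, -0.23, -0.13, -0.24 and -0.32 in mock_cre and -0.04, -0.29, -0.09 and -0.06 in LhTERTL_cre. Each mock tumour was above every tumour of the other lines. PLOD2 fell by 0.88 ± 0.10 in mock_cre against mock (1.84-fold, adjusted p = 1.16e-05) and by 0.45 ± 0.10 in LhTERTL against mock (adjusted p = 0.00311), and it differed by 0.11 between LhTERTL_cre and mock_cre (adjusted p = 0.467).

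Of the prolyl 4-hydroxylase alpha subunits, P4HA3 rose by 0.23 ± 0.05 on average (adjusted p = 0.00201), by 0.37 in the cre pair and with 0.09 (adjusted p = 0.462) in the other. Only 1 of its 2 probe sets was called, the 2 being at 0.06 and 0.40 on average and at 0.03 and 0.71 in the cre pair. P4HA2 rose by 0.19 ± 0.05 on average (adjusted p = 0.0125), but without the mock_cre tumours its difference was -0.0038 (adjusted p = 0.977), and the call ended after adjustment for the 3'/5' ratio (0.15, adjusted p = 0.17). In the cre pair P4HA2 was at 0.24, and this call ended without mock_cre 1 (0.22), mock_cre 4 (0.20) or LhTERTL_cre 4 (0.20). P4HA1 differed by 0.05 ± 0.06 on average and was called in no comparison.

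In LhTERTL_cre against mock_cre, where neither line carries exogenous hTERT, 13 members were higher and 5 lower, against a background of 28% of all genes. Besides those described, COL13A1 rose by 0.91 ± 0.17 (adjusted p = 0.000714), from -0.54, 0.02, -0.61 and -0.63 in mock_cre to 0.53, 0.77, 0.62 and -0.05 in LhTERTL_cre, with overlap at mock_cre 2 and LhTERTL_cre 4. After adjustment for the 3'/5' ratio it was 0.72 (adjusted p = 0.077). COL12A1 rose by 0.53 ± 0.10 (adjusted p = 0.000605; 0.46 with the covariate, adjusted p = 0.0523), and COL6A1 by 0.41 ± 0.11 (0.10 with the covariate, adjusted p = 0.667). COL6A2 rose by 0.28 ± 0.10, a call that ended without mock 1, LhTERTL 1, mock_cre 1, mock_cre 3, LhTERTL_cre 1, LhTERTL_cre 3 or LhTERTL_cre 4 (0.21 to 0.35 over all omissions). COL24A1 was at -0.55 ± 0.13 (adjusted p = 0.00408), and COL9A3 at -0.60 ± 0.19 (adjusted p = 0.0247), which ended without mock_cre 1 (-0.58), mock_cre 3 (-0.53) or LhTERTL_cre 2 (-0.37).

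Higher in both pairs were 5 members (COL4A1, COL4A2, COL12A1, LOXL1 and PLOD1), 9.26% of the members against 6.04% of all genes. None was lower in both, against 3.9% of all genes, and none was called in opposite directions, against 1.09%. In LhTERTL against mock alone 7 members (13%) were called, against 9.26% of all genes, in LhTERTL_cre against mock_cre alone 13 (24.1%), against 17%, and in neither 29 (53.7%), against 62.7%. Whether a gene responded differently was tested by the difference between the pairs, which called 11 members (5 higher and 6 lower in the cre pair), against a background of 10.6% (4.99% higher and 5.63% lower). The difference was -1.32 ± 0.19 for COL5A2 (adjusted p = 0.000495), -1.27 ± 0.33 for LOX (adjusted p = 0.0185), 1.09 ± 0.24 for COL13A1 (adjusted p = 0.00789), 0.89 ± 0.24 for COL6A3 (adjusted p = 0.0227), 0.56 ± 0.14 for PLOD2 (adjusted p = 0.014) and -0.49 ± 0.12 for COL5A1 (adjusted p = 0.0161). For COL4A1 (0.16 ± 0.23) and COL4A2 (-0.12 ± 0.16) it was not called.

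The remaining differences between pairs were less stable. COL1A1 (-0.53) ended without mock 1 (-0.49), LhTERTL 1 (-0.51) or LhTERTL_cre 2 (-0.49), and COL7A1 (-0.47) without mock 1 (-0.44) or LhTERTL_cre 2 (-0.42). COL6A1 (0.56) ended without mock 1, mock 2, LhTERTL 3, mock_cre 4, LhTERTL_cre 2 or LhTERTL_cre 3 (0.50 to 0.68 over all omissions). COL2A1 (-0.59) held only without LhTERTL 3, mock_cre 3, LhTERTL_cre 3 or LhTERTL_cre 4 (-0.70 to -0.49), and COL6A2 (0.45) only without mock 3, mock_cre 2, mock_cre 4 or LhTERTL_cre 2 (0.38 to 0.52). The count was 6 without mock 1 and 7 without LhTERTL_cre 2. After adjustment for the 3'/5' ratio 2 members kept the call, COL5A2 (-1.27, adjusted p = 0.00851) and COL6A2 (0.59, adjusted p = 0.046).

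**Figure D5:**
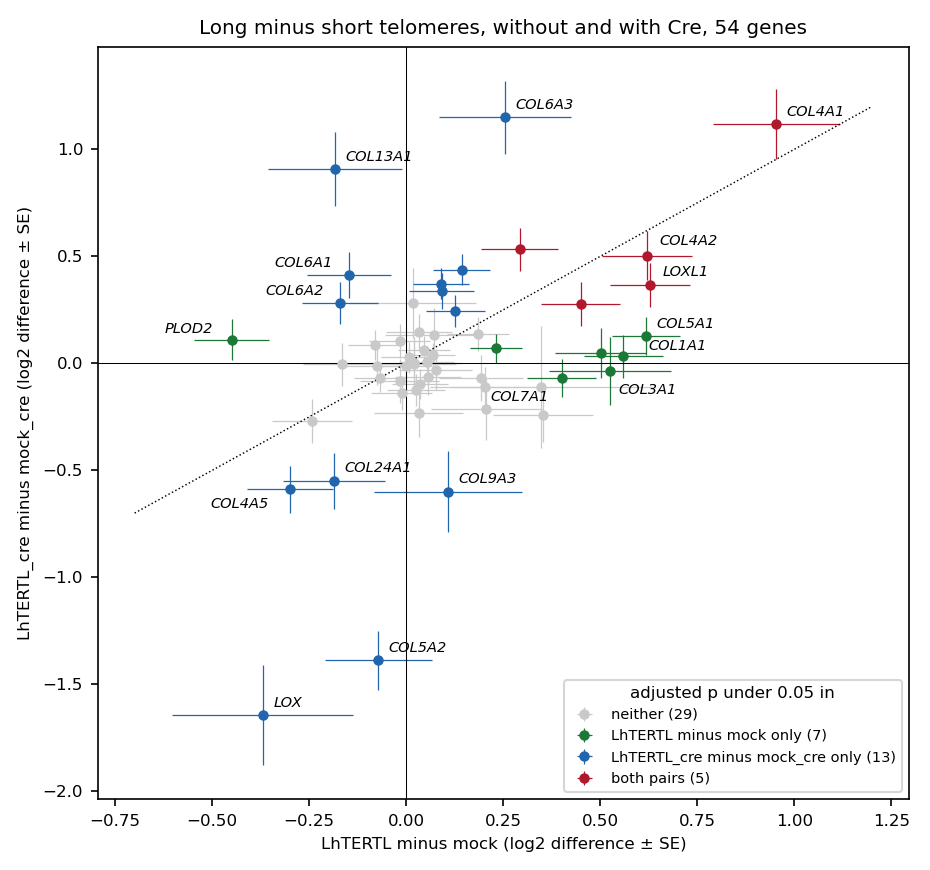
Each point is 1 of the 54 genes, with the log2 difference ± SE of LhTERTL minus mock on the x axis and of LhTERTL_cre minus mock_cre on the y axis; colour shows where the adjusted p was under 0.05, and the dotted line marks equal differences. COL4A1, COL4A2 and LOXL1 lie at the upper right, LOX and COL5A2 are low in the cre pair alone, and COL1A1 and COL5A1 are high in LhTERTL against mock alone.

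Between the long-telomere lines, LhTERTL_cre against LhTERTL, 3 members were lower and none higher, against a background of 3.24% of all genes (2.32% lower). COL4A1 fell by 0.88 ± 0.16 (adjusted p = 0.00655) and COL4A2 by 0.72 ± 0.12 (adjusted p = 0.00203). COL3A1 fell by 0.64 ± 0.16 (adjusted p = 0.0355), a call that ended without LhTERTL 1 (-0.64), LhTERTL 3 (-0.43), LhTERTL_cre 1 (-0.58), LhTERTL_cre 2 (-0.65) or LhTERTL_cre 3 (-0.66). The count was 5 without LhTERTL 4 and 6 without LhTERTL_cre 4. The 3'/5' ratio differed by 0.01 between these lines (exact permutation p = 0.971). LhTERTL_cre against mock, a comparison added after the data were seen that uses neither exogenous hTERT nor mock_cre, called 3 members higher and 5 lower, against 15.6% of all genes (8.64% higher and 6.98% lower). There LOXL1 (0.43), COL1A1 (0.37) and COL5A1 (0.47) were higher, COL4A5 (-0.41), COL4A6 (-0.40), COL5A2 (-0.51), COL6A2 (-0.32) and PLOD2 (-0.77) were lower, and COL4A1 (0.07, adjusted p = 0.863) and COL4A2 (-0.10, adjusted p = 0.689) were not called.

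Of 10 fibril-associated collagens 2 were called higher with long telomeres, COL12A1 (0.41) and COL9A1 (0.16), near the background of 18.5% of all genes. Of 3 short-chain collagens 1 was called higher, COL10A1 (0.15). The fibrillar chains COL11A1 (-0.05), COL11A2 (0.03) and COL5A3 (0.01) were not called. COL21A1 and COL28A1 had large ranges within lines, COL21A1 from -1.31 to 0.46 in LhTERTL_cre and COL28A1 from -0.15 to 0.91 in the same line, and passed no test.

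The proteins that fold, export and process collagens were called in both directions. Of 24 folding and secretion partners 7 were higher and 6 lower with long telomeres, with a median of 0.01. The counts of this and the following lists stand against 18.5% of all genes higher and 14.1% lower with long telomeres. KDELR2, a retrieval receptor of the secretory pathway, rose by 0.42 and SERPINH1, the collagen chaperone HSP47, by 0.42, while SEC31A, a coat protein of export vesicles, and MIA3, which loads collagen into them, fell by 0.44 and 0.47. In mock_cre against mock 10 partners were higher and 2 lower, against 9% and 10% of all genes. SERPINH1 was among the lower at -0.63, and CREB3L1, a transcription factor known to drive collagen genes and named here after its values were seen, rose by 1.24. Of 10 procollagen processing proteins 2 rose and 1 fell with long telomeres. PCOLCE2 and PCOLCE, enhancers of propeptide removal, rose by 1.19 and 0.35, and the propeptidase ADAMTS3 was at -0.80. ADAMTS3 did not fall in LhTERTL against mock (0.14, adjusted p = 0.825). Its pairs differed by -1.88 (adjusted p = 0.0093), with mock_cre the highest line at 1.11.

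Of 24 other matrix proteins 7 rose and none fell (18.5% and 14.1% of all genes), with a median of 0.05, among them the fibrillin FBN2 (1.14), the fibulin FBLN1 (0.40), the matrilin MATN2 (0.56) and fibronectin FN1 (0.64). FBN2 fell by 1.45 in mock_cre against mock. Its pairs differed by 1.26 (adjusted p = 0.00345), with mock_cre the lowest line at -1.62. Of 12 genes of collagen degradation 4 rose and 2 fell. The interstitial collagenase MMP1 rose by 1.98 ± 0.18 and was higher in both pairs (2.17 and 1.78), the inhibitor TIMP2 rose by 0.27 and the cathepsin CTSB by 0.29, and the collagenase MMP13 fell by 0.83. Of 11 collagen receptors 1 rose, ADGRG1 (0.50), which binds collagen III, and 4 fell, including the integrin chains ITGA10 (-0.60) and ITGA1 (-0.42) and the platelet receptor GP6 (-0.22).

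Pathways known to regulate these genes were mixed too. Of 20 genes of TGF-beta signalling, a known inducer of fibrillar collagens, 6 rose and 3 fell with long telomeres (18.5% and 14.1% of all genes), with a median of 0.06. TGFBR1 (0.36), a receptor kinase, and LTBP1 (0.64), which anchors the latent ligand, rose, and the co-receptor TGFBR3 (-0.75) and the repressor SKIL (-0.46) fell. TGFBR3 was at -1.53 in LhTERTL against mock and at 0.03 in LhTERTL_cre against mock_cre (adjusted p = 0.916), and the difference between the pairs was called (1.57, adjusted p = 0.000422). The pairs also differed for LTBP1 (0.84, adjusted p = 0.0332), with mock_cre its lowest line at -0.92. Hypoxia induces LOX, PLOD2, P4HA1 and P4HA2 through HIF-1 in many cell types. Of 22 hypoxia-responsive genes, none of them a member, 10 rose and 5 fell with long telomeres. Those with the smallest adjusted p were PFKFB3 (0.80, its pairs differing by 0.53, adjusted p = 0.024), BNIP3 (0.52) and PDK1 (0.46) among the rises and INSIG2 (-0.46) among the falls. In mock_cre against mock 2 were higher and 8 lower, against 9% and 10% of all genes (median -0.20), while LOX was higher and PLOD2 and P4HA2 lower there. In LhTERTL_cre against LhTERTL 10 of the 22 were lower and none higher, against 3.24% of all genes, and LOX, PLOD2, P4HA1 and P4HA2 were not called. Of the 2 P4HA2 probe sets, at -0.47 and -0.05, 1 was called lower there, and no probe set of LOX, PLOD2 or P4HA1 was called. A link between these enzymes and hypoxia was not tested.

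Of 12 fibroblast markers, chosen without collagens, 3 rose (FBLN1 at 0.40, DPT at 0.27 and PDGFRA at 0.21) and none fell. The mean of the 12 per tumour ran from 0.02 to 0.17 in LhTERTL, -0.02 to 0.06 in LhTERTL_cre, -0.07 to 0.05 in mock and -0.10 to 0.07 in mock_cre. Of 8 endothelial markers 2 rose (PECAM1 at 0.39 and ESAM at 0.42) and 1 fell (KDR at -1.18), of 7 macrophage markers MSR1 rose by 0.19 and AIF1 fell by 0.26, and of 5 keratinocyte markers KRT1 fell by 0.24. None of 5 adipocyte and 5 muscle markers was called in this comparison. Of 7 epithelial tumour markers KRT19 rose by 0.35 in the mean of both pairs.

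Several epithelial markers moved in opposite directions in the separate pairs, but KRT19 and KRT5 had higher means with long telomeres in both. In LhTERTL against mock 4 of the 7 were higher and none lower (12.3% and 7.99% of all genes), and in LhTERTL_cre against mock_cre 1 was higher and 3 lower (15% and 13% of all genes). EPCAM, an epithelial adhesion molecule named here with the next genes after their values were seen, was at 1.18 in the first pair (adjusted p = 0.018) and at -1.34 in the second (adjusted p = 0.00579). The difference between the pairs was called for EPCAM (-2.52, adjusted p = 0.00274), the adhesion protein CDH1 (-1.65, adjusted p = 0.00442) and the keratin KRT18 (-1.09, adjusted p = 0.000574). It was not called for KRT8, KRT7, KRT19 or KRT5. The mean of the 7 per tumour ran from -0.50 to -0.04 in mock, -0.00038 to 0.24 in LhTERTL, -0.0056 to 0.37 in mock_cre and -0.54 to 0.07 in LhTERTL_cre. Centred values cannot show which of these markers were absent, and the part of other cells in the collagen differences was not tested.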

How the data were processed

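RNA of 16 tumours was hybridised to 16 arrays, biotin-labelled cRNA being made from 100 ng of RNA per the labels' protocols. The authors deposited log2 signals per probe set, made with RMA per the submitters' processing notes, whose version is not given in the sources used here. Each probe set had been centred on its median over the 16 arrays, as the values show, so levels, detection and a filter by signal could not be had. For arrays, their number limits the precision. The labels call the tumours of a line independent.

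Of 54675 probe sets, the 41471 that name 1 gene each were averaged to 20279 genes. limma 3.58.1 in R 4.3.3 fitted 4 group means, with Benjamini-Hochberg adjustment over all 20279 genes, two-sided, and an adjusted p under 0.05 counted as called. Every adjusted p of a gene in the text comes from limma. Errors after a difference are SE, and after a mean SD. In simulated data 200 of 20279 genes were changed, tumours varied independently and line means were otherwise equal. The fit recovered 92.4% of changes of 0.5 log2 units between long and short telomeres and 99.2% of changes of 1, with a mean of 11.5 false calls. For LhTERTL against mock it recovered 75.9% and 97.4%, with a mean of 7 false calls. No 3'/5' shift or other difference between lines was simulated, so calls arising from these were not measured. Promoter sequences are RefSeq's for GRCh38.p14.

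The members and gene lists were chosen with earlier results of these data known. Named were all enzymes, the 8 collagens with the largest called rise and fall in each comparison, COL1A1, COL1A2, COL3A1 and the main collagen IV and VI chains, and up to 4 called genes of every other list; further members and CREB3L1 were named after their values were seen. Deviations of same-numbered tumours of different lines correlated from -0.325 to 0.369 over 24 pairs, 9 of them over 0.1. Of 16 arrays, 5 correlated best with one of their own number. The main fit did not pair tumours by number, and whether the numbers mark pairs was not tested further. Alternatives covered the probe sets used, normalization, filter, threshold, variance model, samples, array quality and single arrays left out.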

Additional observations from a re-analysis of the deposited data

Results flagged for a closer look

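Within the lines, 9 of 124 groups of 4 values held a tumour far from the other three by Dixon's criterion, and chance flags about 1 group in 20. COL4A1 was low in LhTERTL 2 (0.46) and in LhTERTL_cre 4 (-0.68). LhTERTL_cre 4 was also low for COL12A1 (-0.13) and PLOD1 (-0.17). LOX was high in mock 3 (0.92), where COL6A3 was low (-0.31). COL12A1 was high in mock 4 (0.14), COL13A1 in mock_cre 2 (0.023), and COL3A1 was low in LhTERTL_cre 1 (-0.23).

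For 11 members the difference between long and short telomeres itself differed between the pairs of lines (limma, adjusted p under 0.05). It was lower in LhTERTL_cre with mock_cre than in LhTERTL with mock for COL5A2 (-1.32), LOX (-1.27), COL2A1 (-0.59), COL1A1 (-0.53), COL5A1 (-0.49) and COL7A1 (-0.47). It was higher for COL13A1 (1.09), COL6A3 (0.89), COL6A1 (0.56), PLOD2 (0.56) and COL6A2 (0.45). The 3'/5' control ratio was highest in mock_cre, and its part in these differences was not separated further than by adjustment for it.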

How the results depend on the processing

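Of 79 calls of named members, 60 held with any 1 array left out. Leaving out 1 array gave 19 to 23 members for long against short telomeres, 9 to 15 for LhTERTL against mock, 14 to 18 for LhTERTL_cre against mock_cre, 12 to 18 for mock_cre against mock, 2 to 6 for LhTERTL_cre against LhTERTL, 6 to 12 for the difference between pairs and 24 to 28 for any difference. The replicate block, which the labels give only as a shared number, gave 22, 11, 17, 16, 3, 10 and 26 in that order.

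Without probe sets ending in _x_at or _s_at, 45 of the 54 members were still measured, by 76 of 128 probe sets. The counts were then 7 for LhTERTL against mock, 11 for LhTERTL_cre against mock_cre and 10 for mock_cre against mock. They were 4 for the difference between pairs and 16 for any difference. At 1.5-fold or more they were 4 for long against short, 4, 7, 9, 5 and 16 for those same comparisons. At an adjusted p under 0.01 they were 10 for mock_cre against mock and 2 for the difference between pairs. The shares of all genes called at these settings are not given here, so the counts cannot be set against a background. LhTERTL_cre against LhTERTL gave 6 with quantile normalization and 7 with array weights. After adjustment for the 3'/5' ratio the counts were 10 for LhTERTL_cre against mock_cre, 7 for mock_cre against mock and 2 for the difference between pairs. For long against short telomeres they were 13 without mock_cre, 8 for LhTERTL_cre against mock alone (added after the data were seen), and 0 by limma with the tumours of a line averaged first, where 4 members had an unadjusted p under 0.05 and the smallest adjusted p over all genes was 0.156. The causes were not tested.

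Signs turned for P4HA2 between long and short telomeres without mock_cre (-0.0038) and with LhTERTL_cre against mock alone (-0.13), and for COL4A2 in the latter (-0.10). Single probe sets turned COL1A1 (202311_s_at at -0.018 for long against short, 202312_s_at at 0.068 and 217430_x_at at 0.17 for the difference between pairs, 217430_x_at at -0.19 for mock_cre against mock), COL27A1 (230603_at at -0.026 for mock_cre against mock), COL3A1 (215076_s_at at -0.26 for LhTERTL against mock and 0.24 for LhTERTL_cre against LhTERTL) and LOXL2 (202999_s_at at -0.0031 for long against short).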
